A study of Saccharomyces cerevisiae with 6 samples.

Results

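The genes described here encode 9 structural proteins of the cell wall of budding yeast, *Saccharomyces cerevisiae*. They were taken by name: *PIR1*, *PIR3*, *HSP150* and *CIS3*, which make up the Pir family apart from *PIR5*, and the mannoprotein genes *CWP1*, *CWP2*, *SED1*, *PST1* and *CCW12*. All 9 were found among the 5449 genes measured, each on 1 probe set annotated to that gene only, and all 9 lay above background on all 6 arrays. Measured values played no part in picking the probe sets, since no gene of the group had several.

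RNA came from 3 cultures treated with clioquinol (CQ), a hydroxyquinoline drug and chelator of metal ions such as zinc, copper and iron, and from 3 cultures with the solvent dimethyl sulfoxide (DMSO). The CQ cultures received 80 µM CQ and the DMSO cultures 1% DMSO, both for 5 h, and the sources used here do not say whether the CQ cultures also held DMSO. All 6 were the haploid laboratory strain BY4742, grown in the rich medium YPD to mid-log phase and then diluted into fresh YPD. The labels call the 3 samples of a group biological replicates. BY4742 is of mating type alpha: 4 alpha-specific markers read 850.5 to 7313 over the 6 arrays, and 6 a-specific markers 46.8 to 552.0, also above background on each array. Of the marker genes deleted in the strain, *LEU2*, *LYS2* and *URA3* were above background on 0 arrays and *HIS3*, of which the strain keeps a part, on 6.

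The yeast wall is a mesh of glucan and chitin whose outer face is coated with heavily mannosylated proteins. Most of these carry a glycosylphosphatidylinositol (GPI) anchor in the secretory pathway, from which they are passed on to wall glucan. Pir proteins (proteins with internal repeats) have no such anchor, are cut by the Kex2 protease and are bound to glucan through a linkage that mild alkali breaks. Several of these genes are induced through the cell wall integrity pathway, a kinase cascade that ends in the MAP kinase Slt2 and the transcription factor Rlm1, and several vary through the cell cycle.

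Values are the authors' deposited linear intensities, and a background level was set on each array at the 95th percentile of its fission yeast probe sets, between 41.8 and 59.8. The median gene read 976.9 to 1008 on the CQ arrays and 889.7 to 926.1 on the DMSO arrays. The 3′/5′ index, the mean log2 ratio of 3′ over 5′ probe sets of 6 control genes, reflects RNA quality and was 1.30, 1.53 and 1.15 on the CQ arrays and 0.96, 0.96 and 0.88 on the DMSO arrays. Every CQ array thus had a higher index than every DMSO array, so a fit with the index as a covariate can hardly separate it from CQ. CQ replicate 2 stood apart on the second principal component, at -14.49 against -0.75 to 9.12 for the other 5 arrays, so that results which rest on it are also given without it. An array reports the mean of a culture, and a change in the share of cells at 1 stage of the cell cycle cannot be told apart from a change in each cell.

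The wall protein genes split. With CQ, *PIR1*, *CWP1* and *PIR3* rose, *CIS3* and *CWP2* fell, and *HSP150*, *PST1*, *SED1* and *CCW12* did not pass the threshold of 0.05 on the adjusted p of limma. Log2 differences, CQ minus DMSO, ran from -0.53 to 0.71 with a median of 0.01, where the median of all genes was 0.02. The 3 of 9 that rose stand against 36.1% of all genes, the 2 that fell against 31.9%, and the 5 called in either direction against 68%. None of the 9 differed 2-fold. Of all genes, 9.71% passed the threshold and were at least 2-fold higher, and 7.51% passed it and were at least 2-fold lower. The CQ and DMSO arrays were fully separated for 7 of the 9, against 73.7% of all genes. By these counts calls were somewhat fewer than over all genes and full separation about as frequent. With 9 genes, some of them near the array maximum, the counts cannot show whether the group differs from the genes at large.

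**Figure D1:**
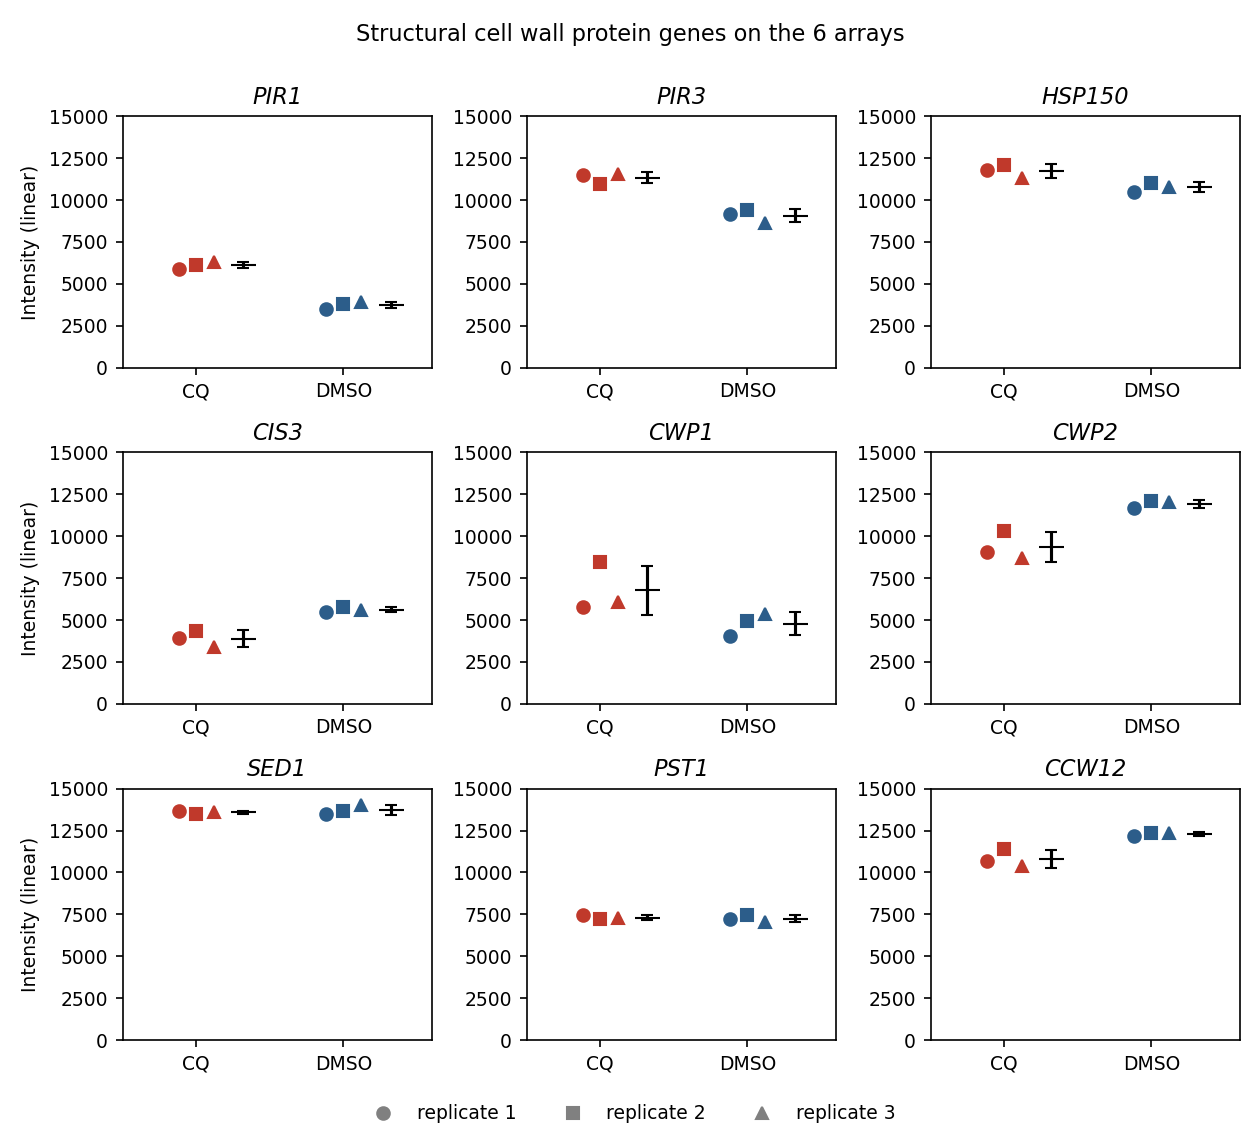
Linear intensity (vertical axis, the same from 0 in every panel) of the 9 genes on the CQ arrays (left) and the DMSO arrays (right). Symbols mark replicates 1, 2 and 3, and the black bar gives the mean and SD of 3 arrays. All 3 CQ arrays lie above the DMSO arrays for *PIR1*, at 5911 to 6278 against 3512 to 3913, and below them for *CIS3* and *CWP2*, while the groups overlap for *SED1* and *PST1*.

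Of the Pir genes, *PIR1* (YKL164C) changed most. Its protein is bound to wall glucan and is found at bud scars. Intensities were 5911, 6133 and 6278 in CQ cultures, against 3512, 3799 and 3913 in DMSO cultures. Every CQ array was above every DMSO array, with a gap much wider than the spread within either group. The mean was 6107 ± 185 with CQ and 3741 ± 207 with DMSO (SD, n = 3 each), a log2 difference of 0.71 ± 0.08 (SE) or 1.63-fold (limma adjusted p = 8.66e-05). A larger log2 difference was found for 904 of the 5449 genes.

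*PIR3* (YKL163W), a close relative of *PIR1*, rose by less. It read 11476, 10976 and 11567 in CQ cultures and 9168, 9398 and 8640 in DMSO cultures. The groups did not overlap. The log2 difference was 0.32 ± 0.07, or 1.25-fold (limma adjusted p = 0.00479). With CQ its mean stood at 77.8% of the array maximum, where a rise can be understated. It was 0.19 (adjusted p = 0.0479) with each array centred on its median, which lowers all differences by 0.14, and 0.37 (adjusted p = 0.0511) with the 3′/5′ index as a covariate, so the call did not hold in that fit.

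*HSP150* (YJL159W), also known as *PIR2*, encodes a secreted and wall-bound Pir protein that is induced by heat. Its intensities were 11792, 12097 and 11321 in CQ cultures, against 10468, 11049 and 10763 in DMSO cultures. The groups did not overlap, but the lowest CQ array lay only slightly above the highest DMSO array. The log2 difference of 0.12 ± 0.07 did not pass (limma adjusted p = 0.149), with a 95% interval from -0.04 to 0.29. It passed only with an intensity trend in the variance model (adjusted p = 0.0247), and it stood at -0.01 with arrays centred on their median.

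*CIS3* (YJL158C), also known as *PIR4*, went the other way. It read 3940, 4365 and 3385 in CQ cultures and 5462, 5783 and 5603 in DMSO cultures. All CQ arrays were below all DMSO arrays, and they were spread more widely. The mean was 3897 ± 491 with CQ and 5616 ± 161 with DMSO (SD, n = 3 each), and the log2 difference was -0.53 ± 0.10 (limma adjusted p = 0.00201), 1.45-fold lower with CQ. With the 3′/5′ index as a covariate it was -0.89, and it passed under all 19 alternatives run.

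The 4 Pir genes thus gave differences of 0.71, 0.32, 0.12 and -0.53, and their ratios within an array changed accordingly. The log2 ratio of *PIR1* over *CIS3* lay between 0.49 and 0.89 in CQ cultures, against -0.63 to -0.52 in DMSO cultures, a change of 1.24 ± 0.13. The change was 0.86 ± 0.13 for *PIR3* over *CIS3*, 0.66 ± 0.08 for *HSP150* over *CIS3* and 0.58 ± 0.06 for *PIR1* over *HSP150*. It was 0.38 ± 0.08 for *PIR1* over *PIR3* and 0.20 ± 0.06 for *PIR3* over *HSP150*. In none of these 6 pairs did the ratios of the groups overlap. The 6 pairs are drawn from 4 genes and are not independent. The share of other gene pairs without overlap was not computed, and of single genes 73.7% had none. For each, p was 0.1 by an exact permutation test (two-sided), and 0.1 after adjustment over the 8 pairs computed, which is the smallest value that 3 against 3 arrays allow. A ratio within an array is free of a single scaling factor per array but does not say which of its members moved. Scaling that depends on intensity can shift it, and the ratios were not computed after quantile normalization. *HSP150* and *PIR3* stood at 80.5 and 77.8% of the array maximum with CQ, so that a ratio with either can move through an understated rise of that gene.

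Among the mannoprotein genes *CWP1* (YKL096W) was higher with CQ and *CWP2* (YKL096W-A) lower. Both encode GPI-anchored wall mannoproteins. *CWP1* read 5764, 8470 and 6096 in CQ cultures, against 4042, 4970 and 5362 in DMSO cultures. The groups did not overlap, but CQ replicate 2 lay far above the other 2 CQ arrays and the SD of 0.30 (CQ, log2 scale) was the widest of the 9 genes. The log2 difference was 0.49 ± 0.16 (limma adjusted p = 0.0291). It was 0.32 (adjusted p = 0.0437) without CQ replicate 2. The call did not hold without DMSO replicate 1 (0.37, adjusted p = 0.1001), without DMSO replicate 2 (0.52, adjusted p = 0.055), with arrays centred on their median (0.35, adjusted p = 0.104) or on their 75th percentile (0.43, adjusted p = 0.0577), or with the 3′/5′ index as a covariate (0.05, adjusted p = 0.882).

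*CWP2*, whose protein is a major mannoprotein of the wall and bears on its permeability and resistance to acid, read 9046, 10339 and 8686 in CQ cultures and 11678, 12080 and 12048 in DMSO cultures. All CQ arrays were below all DMSO arrays. The log2 difference was -0.35 ± 0.09 (limma adjusted p = 0.00676), 1.28-fold lower with CQ, and it was -0.60 with the index as a covariate. With DMSO the mean stood at 82.0% of the array maximum, so the fall can be understated. The log2 ratio of *CWP1* over *CWP2* lay between -0.65 and -0.29 in CQ cultures and between -1.53 and -1.17 in DMSO cultures, a change of 0.84 ± 0.15 (exact permutation p = 0.1, adjusted p = 0.1). With 1 array left out at a time the change lay between 0.74 and 0.93.

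*CCW12* (YLR110C) encodes a small and abundant mannoprotein whose loss weakens the wall. Its intensities were 10675, 11431 and 10387 in CQ cultures, against 12152, 12381 and 12327 in DMSO cultures. The groups did not overlap, and the DMSO arrays lay close together. The log2 difference of -0.18 ± 0.07 did not pass (limma adjusted p = 0.0531), but it was -0.22 (adjusted p = 0.0173) without CQ replicate 2 and -0.32 (adjusted p = 0.00725) with arrays centred on their median. Over 19 alternatives it lay between -0.32 and -0.15, and 7 of these passed. With DMSO the gene stood at 84.4% of the array maximum.

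*SED1* (YDR077W), the gene of a GPI-anchored glycoprotein that is abundant in stationary phase and under stress, was at the top of the scale. It read 13658, 13475 and 13630 in CQ cultures and 13472, 13677 and 14054 in DMSO cultures. The groups overlapped. The difference was -0.02 ± 0.07 (limma adjusted p = 0.852) with a 95% interval from -0.17 to 0.14. At 93.3% of the array maximum with CQ and 94.4% with DMSO, only 1 gene of the array had a higher mean, and a change of this transcript could be hidden by the limit of the scale. Over *CCW12*, its log2 ratio was 0.17 ± 0.05 higher with CQ (exact permutation p = 0.1, adjusted p = 0.1).

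*PST1* (YDR055W), which encodes a GPI protein that is secreted by protoplasts regenerating their wall and is known as a target of the integrity pathway, had the smallest difference. Intensities were 7459, 7202 and 7276 in CQ cultures, against 7240, 7469 and 7029 in DMSO cultures. All CQ values lay within the range of the DMSO values. The difference was 0.01 ± 0.07 (limma adjusted p = 0.875), with a 95% interval from -0.15 to 0.17, at 50.2% of the array maximum with CQ and 49.8% with DMSO. Its sign changed with the scaling, to -0.12 with arrays centred on their median.

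**Figure D2:**
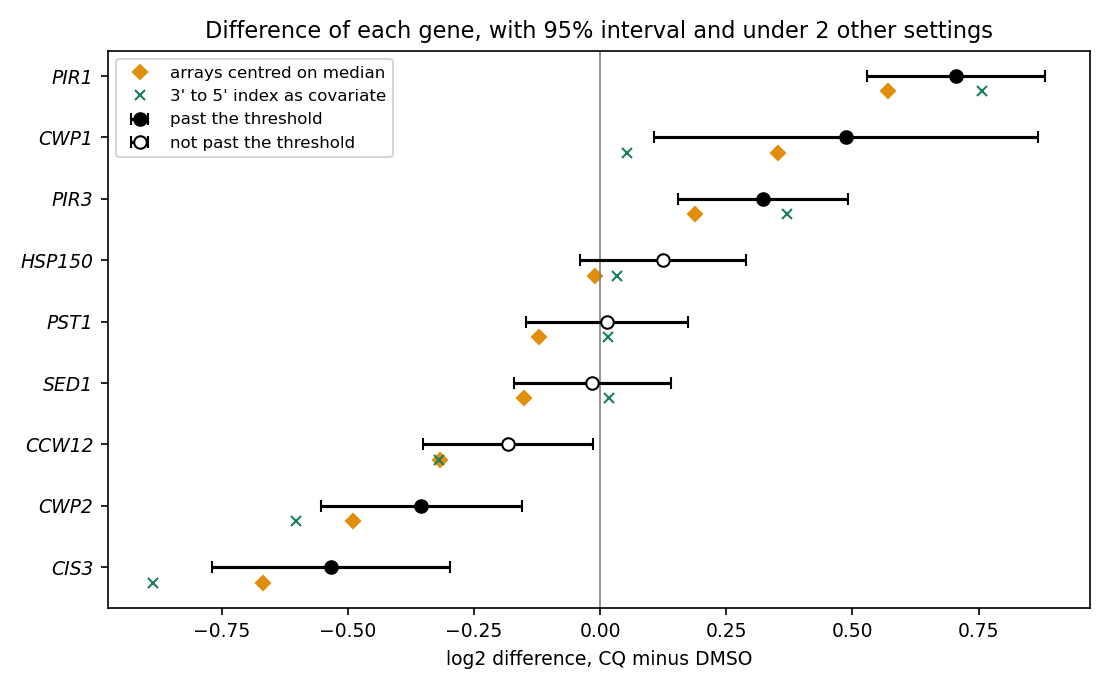
Log2 difference, CQ minus DMSO (horizontal axis), of the 9 genes, with the 95% interval of the limma fit before adjustment. Filled circles passed the adjusted threshold and open circles did not, diamonds give the value with arrays centred on their median and crosses the value with the 3′/5′ index as a covariate. *PIR1* stays between 0.57 and 0.76 in these settings, while *CWP1* ranges from 0.05 to 0.49.

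The brightness of the group limits what can be seen. Of the 5449 genes, 37 had a DMSO mean of at least 70% of the array maximum, and 4 of the 9 wall protein genes were among them: *HSP150*, *CWP2*, *SED1* and *CCW12*. Of these 37 genes, 1 rose, 8 fell and 28 did not pass, and their log2 differences ran from -1.19 to 0.22. They were picked by a high DMSO mean, which leaves little room for a rise but not for a fall. *PIR3* came into that range with CQ, at 77.8%. *PIR1*, *CIS3*, *CWP1* and *PST1*, at 25.7 to 49.8% of the maximum with DMSO, lay well below it.

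Replicates of the CQ group differed in a way that several members shared. *CIS3*, *CWP1*, *CWP2* and *CCW12* were each highest, among CQ arrays, on replicate 2, by 0.17, 0.34, 0.15 and 0.08 above the group mean (log2 scale), and *HSP150* by 0.04. *CIS3*, *CWP2*, *CCW12* and *HSP150* took the order replicate 3, 1, 2, which is also the order of the 3′/5′ index (1.15, 1.30 and 1.53). The DMSO arrays, whose index differed less, did not repeat this. These 4 genes and *CWP1* were lowest on DMSO replicate 1 (index 0.96), not on DMSO replicate 3 (0.88). *CIS3*, *CWP1*, *CWP2* and *CCW12* have the shortest coding lengths of the group, 684, 720, 279 and 402 bases. Over all genes of at most 750 bases the median deviation on CQ replicate 2 was 0.08, and over the longer ones it was -0.05. The median difference between CQ and DMSO was -0.09 over those short genes and 0.07 over the longer ones. *PIR1*, *PIR3*, *SED1* and *PST1* deviated by no more than 0.05 on any CQ array. The part of the index in the differences of the 4 short genes was examined only by the covariate fit, in which *CIS3*, *CWP2* and *CCW12* lay further below 0 and *CWP1* close to 0. That fit cannot settle this part, since the index was higher on all CQ arrays than on all DMSO arrays. The standard error of *CWP1* was 0.28 in it, against 0.16 in the main fit.

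**Figure D3:**
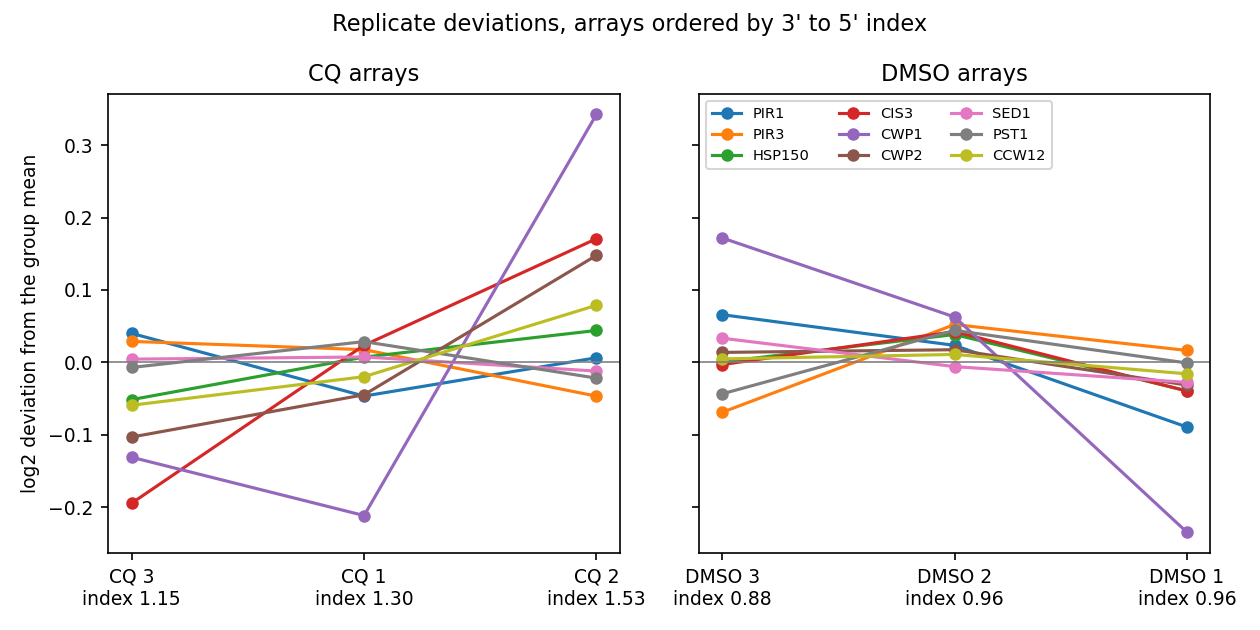
Deviation of each of the 9 genes from the mean of its group (vertical axis, log2 scale) on the 3 CQ arrays (left) and the 3 DMSO arrays (right), ordered by the 3′/5′ index, which is written under each array. On CQ replicate 2, *CWP1* is 0.34 and *CIS3* 0.17 above its group mean.

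Neighbouring pairs make up 6 of the 9 genes, as a gene table of the S288C reference shows. *PIR1* and *PIR3* are adjacent and divergent, *HSP150* and *CIS3* adjacent and convergent, and *CWP2* and *CWP1* follow each other on 1 strand. Both genes of the divergent pair rose, by 0.71 and 0.32. In the convergent pair *HSP150* did not pass (0.12) and *CIS3* fell (-0.53), and in the tandem pair *CWP2* fell (-0.35) and *CWP1* rose (0.49). Of the other neighbours, some moved with the wall protein gene beside them and some did not, where 68% of all genes were called. Next to *PST1*, *CDC34* did not pass (-0.0005) and *EMC10* fell by 0.42 on the log2 scale. Neither YKL162C next to *PIR3* (0.19) nor YKL096C-B next to *CWP2* (0.35) passed. *MCD4*, next to *PIR1*, which encodes an enzyme of GPI anchor synthesis, averaged 1997 ± 214 with CQ and 464 ± 27.7 with DMSO (SD, n = 3 each), a rise of 2.06 ± 0.10 (limma adjusted p = 2.36e-06). *FAR1*, next to *CIS3*, which encodes an inhibitor of the cyclin-dependent kinase in the mating response, fell by 1.44 on the log2 scale. *SHU2*, a DNA repair gene next to *SED1*, rose by 1.51 ± 0.16, and *RAD55*, also of DNA repair and on its other side, fell by 0.55 on the log2 scale. *YJU2*, a splicing factor gene next to *CWP1*, which rose, only just passed as lower (-0.76 ± 0.29, limma adjusted p = 0.048). Its CQ arrays were widely spread, at 203.3 ± 97.2 (SD, n = 3). *AHP1*, a peroxiredoxin gene next to *CCW12*, rose by 0.20 ± 0.07. *PIR5*, the Pir gene next to *HSP150*, averaged 338.9 ± 31.2 with CQ and 305.9 ± 19.9 with DMSO and did not pass (0.14 ± 0.09, limma adjusted p = 0.208).

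Of 23 measured genes for further GPI-anchored, secreted or adhesive wall proteins, 2 rose, 11 fell and 10 did not pass, beside 36.1% higher and 31.9% lower over all genes. Their median was -0.29. The lectin-like flocculin genes *FLO1* and *FLO9* rose by 0.62 ± 0.14 and 0.54 ± 0.08 (limma adjusted p = 0.00538 and 0.000476), but they are near-identical in part and their signals may mix. *AGA1*, which encodes the anchor subunit of a-agglutinin, fell by 2.77 on the log2 scale, and *TOS6*, the gene of a GPI protein of the wall, fell by 2.70. *ECM33*, the relative of *PST1*, averaged 5170 with CQ and 7981 with DMSO, and its difference was -0.63 ± 0.08 (limma adjusted p = 0.000167); it was named after its value was seen.

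Of 22 genes for enzymes that remodel wall glucan and chitin, 6 rose, 10 fell and 6 did not pass, beside the same 36.1% and 31.9% of all genes, with a median of -0.12. *NCA3* (1.07 ± 0.11), of the SUN family of wall proteins, and the exoglucanase gene *EXG2* (0.68 ± 0.09) rose most. *UTR2*, a transglycosylase gene that links chitin to glucan, fell by 1.55 on the log2 scale, and *GAS1*, whose product elongates glucan, by 0.77.

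Of 12 genes that process wall proteins or attach them, 7 rose, 1 fell and 4 did not pass, where 36.1% of all genes rose and 31.9% fell. Their median was 0.58. *DFG5*, whose product takes part in moving GPI proteins to wall glucan, averaged 5019 with CQ and 1415 with DMSO and rose by 1.82 ± 0.07 (limma adjusted p = 1.02e-06). The yapsin protease gene *YPS3* rose by 1.65 ± 0.14. *GAB1*, a subunit gene of the GPI transamidase, fell by 0.42 on the log2 scale. *KEX2*, the protease that cuts Pir proteins, averaged 958.7 with CQ and 1116 with DMSO, and its difference of -0.22 ± 0.09 did not pass (limma adjusted p = 0.0539).

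Of the genes for wall sensors, the kinase cascade and its factors, 15 of 21 rose, 3 fell and 3 did not pass, against 36.1% higher and 31.9% lower over all genes, with a median of 0.47. *KDX1*, a kinase-like relative of *SLT2* that is induced through it and lies near *PIR3*, rose by 1.61 ± 0.11, and the phosphatase gene *MSG5*, which acts on Slt2, rose by 1.42 ± 0.09. *SDP1*, another phosphatase gene of Slt2, fell by 1.44 on the log2 scale, and *SWI6*, the gene of the partner of Swi4, by 0.64. Set beside these, 3 of the 9 wall protein genes rose and 2 fell, from 0.71 for *PIR1* to -0.53 for *CIS3*. Several of the 9 are known as targets of the pathway, *PIR1* and *PST1* (0.01) among them.

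A further list holds genes with a peak between mitosis and the next G1 phase, when *PIR1* and *PIR3* are also known to be expressed. Of 15 measured, 2 rose, 9 fell and 4 did not pass, against 36.1% higher and 31.9% lower over all genes, with a median of -0.54; 4 of the listed genes also stand in another of these lists. *ASH1* (0.57 ± 0.09), a repressor that acts in daughter cells, and the glucanase gene *DSE4* (0.51 ± 0.14) rose. *DSE3*, a daughter-specific gene, fell by 1.61 on the log2 scale and *SWI5*, the gene of a transcription factor of this phase, by 1.37.

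**Figure D4:**
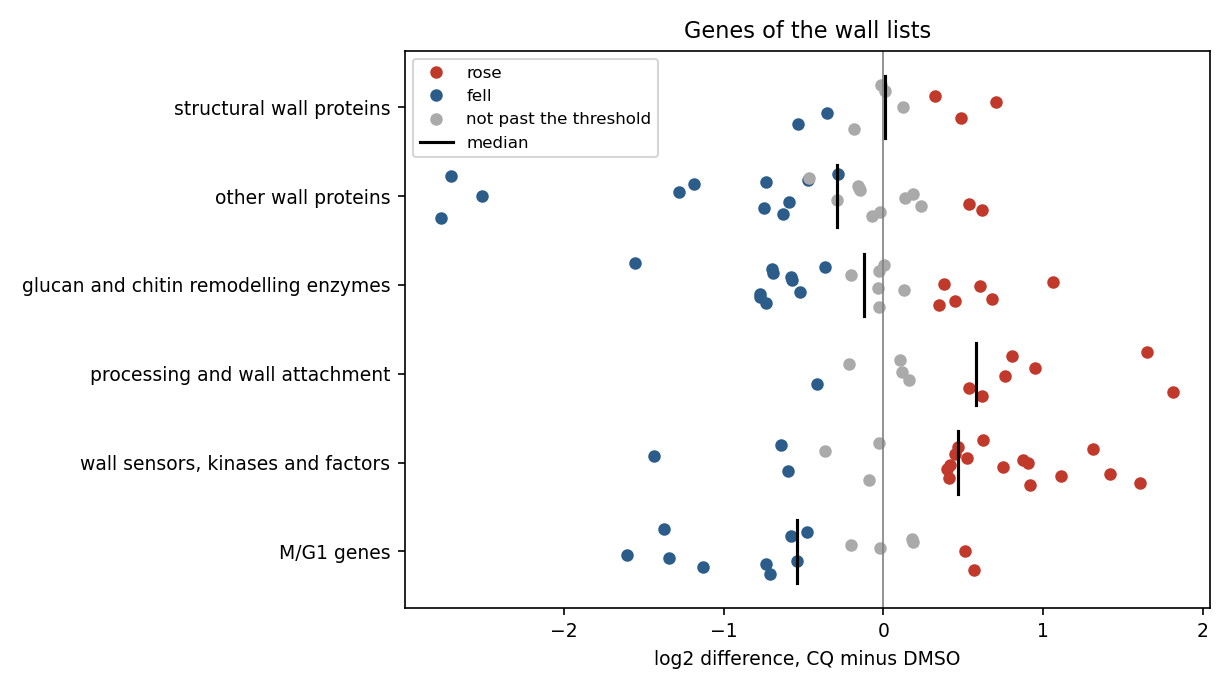
Log2 difference, CQ minus DMSO (horizontal axis), of the 9 structural wall protein genes (top row) and of the genes of 5 further lists, with 1 point per gene. Red points rose, blue points fell, grey points did not pass the threshold, and the black line is the median of a list. The wall protein genes lie between -0.53 and 0.71. Their median is 0.01, and the medians of the other lists run from -0.54 to 0.58.

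The genes nearest in pattern to *PIR1* over the 6 arrays, by the root mean square distance between log2 values centred on each gene's mean, were *HHO1* (0.03), the linker histone gene, *PNS1* (0.04) and *SWM1* (0.05), a subunit gene of the anaphase-promoting complex. *HHO1* read 3313, 3585 and 3725 in CQ cultures, against 2037, 2281 and 2261 in DMSO cultures. Nearest to *CIS3* were 3 ribosomal protein genes, *RPS24A* (0.02), *RPS8A* (0.02) and *RPL1B* (0.03). *RPS24A* read 3949, 4356 and 3358 in CQ cultures and 5278, 5674 and 5618 in DMSO cultures, with CQ replicate 2 the highest of its group, as in *CIS3*. Such likeness is common on these arrays: 119 genes lay within 0.1 of *PIR1* and 174 within 0.1 of *CIS3*.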

How the data were processed

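Total RNA was measured on Affymetrix yeast arrays, from biotin-labelled cRNA per the labels' protocols. The deposited table held 1 linear intensity per probe set and array for 10928 probe sets; the sources used here name neither the summarising software nor any scaling between arrays. GEO's platform annotation paired 5498 probe sets with 1 *S. cerevisiae* gene, and symbols were updated by identifier. For 47 genes with several probe sets the brightest was used.

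Intensities were compared as log2(intensity + 16) with limma 3.58.1 in R 4.3.3 (lmFit, eBayes, two-sided), adjusted by Benjamini-Hochberg over 5449 genes, threshold 0.05; "rose" and "fell" mean past it. The fit was tested on simulated data. Values after ± are standard errors for log2 differences and SDs for intensities. The number of arrays limits the precision. Lists were described by counts and medians. The 9 genes, the lists and the tests were chosen with earlier results of these data known; from each further list, up to 2 genes that rose and 2 that fell most were named. *MLP1* in 1 list stands for *KDX1* and *WSC1* for *SLG1*. Neighbours, length classes, *ECM33*, *KEX2* and *PIR5* were added after values were seen. Promoter sequences were not analysed here. The replicate numbers did not pair the arrays, and no block was fitted in the results given. Plots were drawn with matplotlib 3.10.9.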

Additional observations from a re-analysis of the deposited data

How the results depend on the processing

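The 14 planned kinds of alternative gave 19 values for each gene. *PIR1* (0.57 to 0.77), *CIS3* (-0.89 to -0.44) and *CWP2* (-0.60 to -0.30) passed in the same direction in all 19. Of the 9 genes, 3 rose; with the 3′/5′ index as a covariate 1 rose, *PIR1*. Leaving out 1 array at a time, 2 to 3 rose and 2 to 3 fell. Signs turned only in genes that had not passed: *HSP150* to -0.0104 and *PST1* to -0.12 with arrays centred on their median, *PST1* to -0.0466 with the 75th percentile, and *SED1* to 0.0167 with the index as a covariate. Leaving out 1 array gave -0.00825 to 0.0355 for *PST1* and -0.0291 to 0.00139 for *SED1*. With arrays centred on their median, 1578 genes were higher and 2211 lower, against 1969 and 1739; the median gene moved by -0.14. With the dimmest 40% of genes left out, fewer genes were tested, of which 1185 were higher and 1083 lower. The replicate block gave 1971 higher and 1738 lower and changed the call of none of the 9 genes; same-numbered arrays correlated at 0.05, 0.12 and 0.14 in their deviations, too little to pair them. The within-array ratios of the 8 pairs kept their sign under both pseudocounts and without each array. The limit of the scale at the bright end bears on *SED1*, *CCW12*, *CWP2*, *HSP150* and *PIR3*.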
